A study of Mus musculus with 6 samples.

Results

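The proteasome subunit genes were compared between a jaw-closing muscle, the superficial masseter, and a limb muscle that lifts the foot, the tibialis anterior. Members were all probe sets whose single gene symbol in the platform annotation begins with Psma, Psmb, Psmc, Psmd or Psme followed by a number. The rule found 76 of 22626 probe sets that are not controls, and these named 43 genes. It used symbols alone and no measured value. RNA came from normal adult female C57Bl/6 mice aged 6 months, without treatment or genetic change in the labels, with 3 samples per muscle and 1 oligonucleotide array per sample. Nothing in the labels states that those 3 were taken from different animals, so the p-values measure only the spread among these arrays, part of which may be technical. The study set a masticatory muscle against a limb muscle to find transcripts that distinguish them.

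The proteasome is the main protease of the cytosol and nucleus and degrades proteins marked with ubiquitin chains. Its barrel-shaped 20S core stacks outer rings of alpha subunits, encoded by the Psma genes, around inner rings of beta subunits, encoded by the Psmb genes, of which Psmb5, Psmb6 and Psmb7 carry the catalytic sites. The 19S regulatory particle, made of Psmc ATPases and Psmd subunits, binds ubiquitin chains, removes them and threads the protein into the core. Under interferon the catalytic subunits Psmb8, Psmb9 and Psmb10 replace the constitutive ones and form the immunoproteasome, which shapes peptides for antigen presentation. In skeletal muscle the ubiquitin-proteasome pathway carries much of the breakdown of myofibrillar proteins, and its genes are known to rise in wasting.

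Promoter sequences of 4 members are shown to mark the genes on which the results below turn and the elements known to act on this family. They come from RefSeq on GRCm38.p6 and cover the 250 bases before the annotated start, 5′ to 3′ on the gene's strand. Capitals mark a match to a searched motif. Psmd11, the gene with the greatest difference, lies behind chr11:80428365-80428614, plus strand, and holds no match to any of the 4 motifs. Psmd14 is shown with a CCAAT box, the element of the factor NF-Y, read on the other strand (chr2:61711444-61711693, plus strand). Psmb5, a constitutive catalytic gene, is shown with the core of the antioxidant response element, TGACNNNGC, through which the factor Nfe2l1 is known to act on proteasome genes (chr14:54617996-54618245, minus strand). Psmb8, the inducible counterpart of Psmb5, is shown with the interferon-gamma activated site, TTCNNNGAA (chr17:34197945-34198194, plus strand).
Psmd11: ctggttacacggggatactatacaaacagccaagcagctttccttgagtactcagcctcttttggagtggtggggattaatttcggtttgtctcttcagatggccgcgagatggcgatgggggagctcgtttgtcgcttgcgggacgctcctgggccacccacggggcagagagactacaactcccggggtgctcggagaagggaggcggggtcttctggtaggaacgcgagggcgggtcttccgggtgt
Psmd14: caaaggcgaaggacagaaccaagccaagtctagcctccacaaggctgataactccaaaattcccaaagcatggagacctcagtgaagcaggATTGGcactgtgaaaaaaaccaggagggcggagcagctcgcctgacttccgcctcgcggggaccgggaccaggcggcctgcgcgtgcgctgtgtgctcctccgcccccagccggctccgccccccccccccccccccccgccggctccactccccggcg
Psmb5: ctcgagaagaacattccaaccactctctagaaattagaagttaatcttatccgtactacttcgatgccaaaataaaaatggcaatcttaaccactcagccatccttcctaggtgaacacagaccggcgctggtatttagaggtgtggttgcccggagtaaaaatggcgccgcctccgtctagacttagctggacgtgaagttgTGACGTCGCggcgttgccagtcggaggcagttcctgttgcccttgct
Psmb8: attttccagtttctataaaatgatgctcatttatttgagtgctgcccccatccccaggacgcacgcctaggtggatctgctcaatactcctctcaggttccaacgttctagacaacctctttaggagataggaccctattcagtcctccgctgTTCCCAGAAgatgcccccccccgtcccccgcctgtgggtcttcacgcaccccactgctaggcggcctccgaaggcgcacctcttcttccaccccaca

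The motifs were searched on both strands in the 39 windows found for 36 of the 43 genes, and in all 32851 windows of the same length. TGACNNNGC was in 12.8% of member windows and 10.2% of all windows, with matches in Psmb5, Psmb6, Psmc6, Psmd12 and Psmd9. CCAAT was in 38.5% and 33.8%. The interferon-stimulated response element was in 7.69% and 2.98%, which is 3 member windows (Psmb3, Psmd4 and Psmd9). TTCNNNGAA was in 2.56% and 7.02%, and Psmb8 was the 1 member window that held it. These letters may overlap with other motifs, and a match is a description of the sequence and not a bound site.

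The deposited values were signal intensities on a common scale, since the mean after trimming 2% at each end was 150.1 on each of the 6. Probe sets entered the test at a mean log2 signal of 4.84 or more over the arrays, a signal of 28.6. This left 13576 probe sets, 66 of them members, which named 42 of the 43 genes. Psma8, the alpha subunit typical of testis, was the gene that did not pass the filter. The 1 probe set annotated with both Psme2 and Psme2b has no single symbol and is not analysed here. Each difference is the log2 signal in masseter minus that in tibialis anterior, given ± limma's standard error (SE), and adjusted p-values are limma's, after Benjamini-Hochberg adjustment over all 13576 probe sets, with a threshold of 0.05. Where a gene has several probe sets, the brightest stands for it, and n = 3 per muscle throughout. The defining markers of skeletal muscle were bright in both muscles, with mean signals of 18786 and 19985 for skeletal alpha-actin (Acta1) and 18298 and 20066 for muscle creatine kinase (Ckm) in masseter and tibialis anterior.

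Most genes of the proteasome had somewhat lower signals in the masseter, and 1 of them, Psmd11, passed the threshold. Psmd11, a lid subunit that braces the regulatory particle against the core, averaged a signal of 1117 in masseter against 2218 in tibialis anterior. Over the 42 genes the median difference was -0.21, against a median of 0.02 over all 13576 probe sets. Differences were below 0 in 38 of the 42 genes, and in 57 of the 66 member probe sets against 47.1% of all probe sets. Without the 2 genes that the symbol rule took but that encode no subunit, 37 of 40 genes were below 0. Past the threshold was 1 of 66 member probe sets, against 1.18% of all, or 0.619% when only probe sets lower in the masseter are counted. In the other direction it was 0 of 66, against 0.56% of all probe sets, and at an unadjusted limma p under 0.05 it was also 0 of 66, against 6.93%. At an unadjusted p under 0.05, 11 of 66 were lower in the masseter, against 6.12% of all, or 13.1% in either direction. In 20 of the 66 all 3 masseter arrays lay below all 3 tibialis anterior arrays, against 8.63%, and in 0 of 66 they lay above, against 9.21%. Lower in all 3 numbered pairs were 31 of the 66, against 16.3% of all, and 1 was higher in all 3, against 18.8%.

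**Figure D1:**
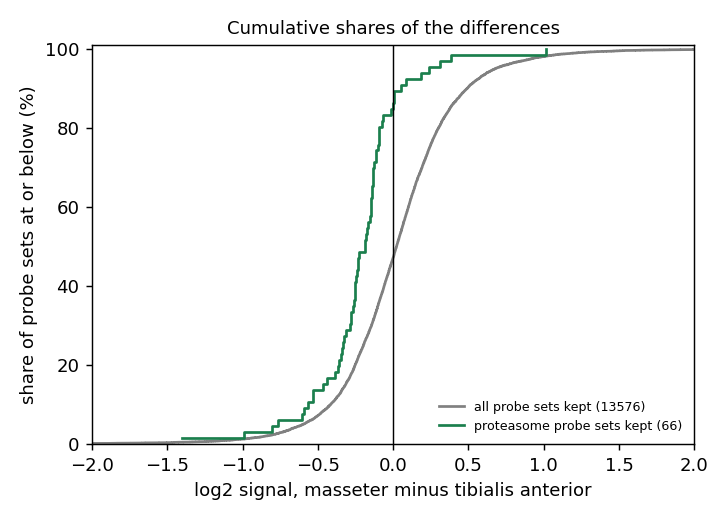
Cumulative share of probe sets, in percent, at or below each log2 difference of masseter minus tibialis anterior, for all 13576 probe sets kept (grey) and the 66 proteasome probe sets kept (green), on an axis from -2 to 2. The proteasome line reaches 86.4% left of 0, where the line of all probe sets reaches 47.1%.

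The family's median lay below 0 in each numbered pair of samples. The median over the 42 genes was -0.22 in pair 1, -0.22 in pair 2 and -0.14 in pair 3, and 33, 36 and 34 of the genes lay below 0. The mean log2 signal over the 42 genes was 9.33, 9.36 and 9.32 on the masseter arrays and 9.55, 9.61 and 9.53 on the tibialis anterior arrays, so the arrays of the muscles did not overlap. Among the 1085 probe sets at or above the median level of the 42 genes, the median difference was -0.05 and 58.2% were below 0. With quantile normalization of the arrays 38 of 42 genes were again below 0. These counts describe the family and are not a test of it.

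Other measures moved with the muscles. For Gapdh, the ratio between its 3′ and 5′ control probe sets, a sign of RNA and labelling quality, was 2.66 ± 0.23 (SD, n = 3) in masseter, against 1.94 ± 0.11 (SD, n = 3) in tibialis anterior. The two-sided exact permutation p was 0.1, the lowest possible with 3 against 3. For Actb it was 2.96 ± 0.34 and 2.70 ± 0.11 (SD, n = 3), at an exact permutation p = 0.3. Of 8 salivary gland markers kept of 12 on the array, 7 were above 0, 3 of them past the threshold by limma, and Smr2 was below, at -0.64. Of all probe sets 0.56% were past it and higher in the masseter. Chia1 and Pip, both among the 3, had mean signals of 15.3 and 17.5 in the tibialis anterior, under the filter level. They were thus kept through their masseter signals. The mean log2 signal of the 8 markers ran from 7.14 to 12.11 on masseter arrays and from 5.87 to 8.43 on tibialis anterior arrays. All 6 adipocyte markers kept of 8 were above 0, 2 of them past the threshold by limma. Their mean log2 signal ran from 9.21 to 9.78 and from 8.46 to 8.76. Cidec, 1 of the 6, had a mean signal of 26.6 in the tibialis anterior and was likewise kept through its masseter signals. Of 5 nerve and Schwann cell markers, all kept, 4 were higher in the masseter and 0 passed. Their mean log2 signal ran from 6.82 to 7.14 and from 6.39 to 6.54. The 1 erythroid marker kept of 3, the heme synthesis gene Alas2, ran from 7.58 to 7.72 and from 6.65 to 7.12. The arrays of the muscles did not overlap in the adipocyte, nerve and erythroid markers. Of 9 endothelial markers 6 were below 0, with a median of -0.19. Of 9 skeletal muscle markers 6 were below 0, with a median of -0.12. The mean log2 signals of both these lists overlapped between the muscles. In bulk tissue fewer cells of a type and less RNA per cell cannot be told apart. The part of these measures in the proteasome differences was not tested. Without masseter 1, the array with the most salivary signal, an unblocked fit gave a median of -0.20 for the 66 member probe sets. With all arrays it was -0.19. Masseter 2, at a mean log2 salivary signal of 9.39, stayed in that fit, so the part of the salivary signal was not tested by it.

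**Figure D2:**
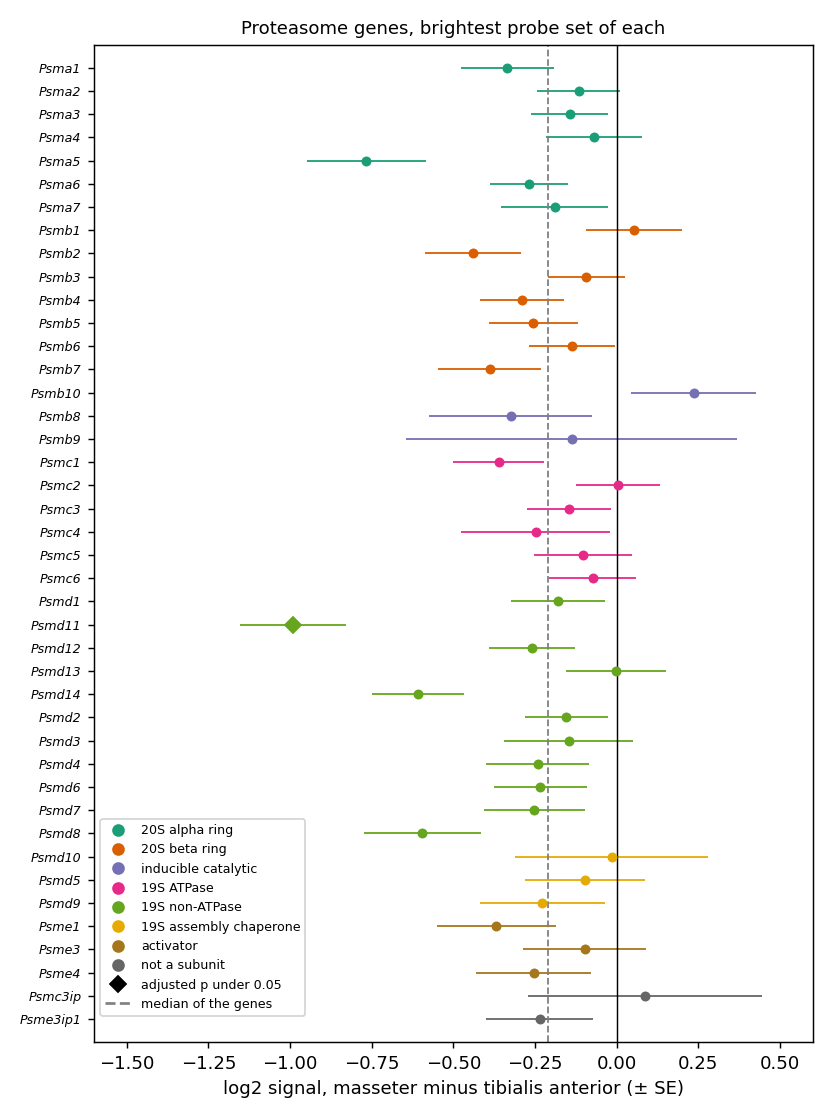
Difference of log2 signal, masseter minus tibialis anterior, with limma's SE for the brightest probe set of the 42 genes, coloured by their place in the proteasome or as no subunit. Most points lie left of 0 around the dashed median of -0.21, and the diamond marks Psmd11, the 1 gene with an adjusted p under 0.05.

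The alpha ring, whose subunits form the gate of the core, had 7 genes kept, and the difference of each was below 0, with a median of -0.19. None passed the threshold by limma, and 2 had an unadjusted p under 0.05. The mean log2 signal of the 7 genes was 10.40, 10.57 and 10.54 on the masseter arrays and 10.74, 10.83 and 10.75 on the tibialis anterior arrays, with no overlap. Psma5 had the greatest difference of the ring. Masseter 1, 2 and 3 read 636, 1372 and 1008 and tibialis anterior 1, 2 and 3 read 1532, 1770 and 1596, so each masseter array lay below each tibialis anterior array. The difference was -0.77 ± 0.18 (adjusted p = 0.108), and the masseter arrays spread widely, with an SD of 0.56 on the log2 scale. Its other kept probe sets gave -0.28 and -0.35 (limma adjusted p = 0.542 and 0.773), and in both the muscles overlapped. Psma1 gave -0.33 ± 0.14 (adjusted p = 0.37), with masseter signals from 1005 to 1126 and tibialis anterior signals from 1223 to 1486. The signals of Psma2, Psma3 and Psma6 did not overlap between the muscles either, at differences of -0.12, -0.14 and -0.27, while those of Psma4 and Psma7 did overlap. The other kept probe sets of Psma6 gave -0.13 and -1.40, and in both the muscles overlapped.

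The beta ring of constitutive subunits had 7 genes, with 6 below 0, a median of -0.26 and 0 past the threshold by limma (2 with an unadjusted p under 0.05). Its mean log2 signal was 10.39, 10.47 and 10.56 on the masseter arrays and 10.66, 10.72 and 10.70 on the tibialis anterior arrays. Psmb2, a structural beta subunit without a catalytic site, had signals of 535, 535 and 515 in the masseter against 754, 649 and 752 in the tibialis anterior. These did not overlap, and the difference of -0.44 ± 0.15 had an adjusted p of 0.242. Psmb4, also structural, had masseter signals from 1987 to 2050 and tibialis anterior signals from 2231 to 2614 (-0.29 ± 0.13, adjusted p = 0.391), but its other probe set gave 0.00. Psmb1 was the gene above 0, at 0.05 ± 0.15, with signals from 825 to 899 and from 718 to 913. Its difference changed sign without replicate 1 (-0.06), and its other, dimmer probe sets gave 1.02 and -0.17, neither past the threshold.

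Of the constitutive catalytic subunits, Psmb7, which carries the trypsin-like activity, had the greatest difference. Its signals were 1247, 1766 and 1977 in the masseter against 1995, 2471 and 1979 in the tibialis anterior. The groups did not overlap, although masseter 3 and tibialis anterior 3 were almost level, and the difference was -0.39 ± 0.16 (adjusted p = 0.346). Psmb5, the site of the chymotrypsin-like activity and the main target of proteasome inhibitor drugs, had 1671, 1602 and 2200 against 2047, 2180 and 2243. Masseter 3 lay among the tibialis anterior arrays, and the difference was -0.26 ± 0.14 (adjusted p = 0.487). Psmb6, the caspase-like subunit, had 1420, 1472 and 1564 against 1706, 1463 and 1742, which overlapped (-0.14 ± 0.13, adjusted p = 0.735).

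Of the 3 inducible catalytic subunits 2 were below 0 and 1 above, and 0 passed the threshold by limma or had an unadjusted p under 0.05. Psmb8 had signals of 74.1, 62.3 and 60 in the masseter against 68.3, 96.4 and 82.5 in the tibialis anterior, which overlapped (-0.32 ± 0.25, adjusted p = 0.656). Psmb9 had 38.4, 28.4 and 35.5 against 58.5, 58.7 and 15. The last value, tibialis anterior 3, lay well under the filter level, and with it the difference was -0.14 ± 0.51 (adjusted p = 0.941). Without that array, in an unblocked fit, it was -0.79 (adjusted p = 0.487) and did not pass. Psmb10, the counterpart of Psmb7, had 148, 166 and 234 against 153, 142 and 162, a difference of 0.24 ± 0.19 (adjusted p = 0.673). Its highest array was masseter 3, and the groups overlapped. Psmb9 lay under the filter level on 2 of the 6 arrays, and Psmb8 on 0.

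Whether an inducible subunit and the constitutive subunit it replaces differed unequally was tested in 3 pairs, as the log2 signal of one minus that of the other on each array. For Psmb10 and Psmb7 the contrast was -3.08, -3.41 and -3.08 in the masseter and -3.71, -4.12 and -3.61 in the tibialis anterior. All masseter arrays lay above all tibialis anterior arrays, and the change between the muscles was 0.62. Within the numbered pairs of samples it was 0.63, 0.71 and 0.54, of 1 sign, with an SD of 0.086. The two-sided exact permutation of 3 against 3 arrays, which does not use the numbers, gave p = 0.1, the smallest it allows, and 0.3 after adjustment over the 3 contrasts. It joins the differences of 0.24 for Psmb10 and -0.39 for Psmb7, neither of which passed. For Psmb8 and Psmb5 the change was -0.07 (exact permutation p = 0.9), with an SD of 0.43 over the numbered pairs, and its sign changed when masseter 3 was left out (0.13). For Psmb9 and Psmb6 the change was 0.00 with an SD of 1.26 over the pairs (exact permutation p = 1.0), a spread that would hide even a large change.

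**Figure D3:**
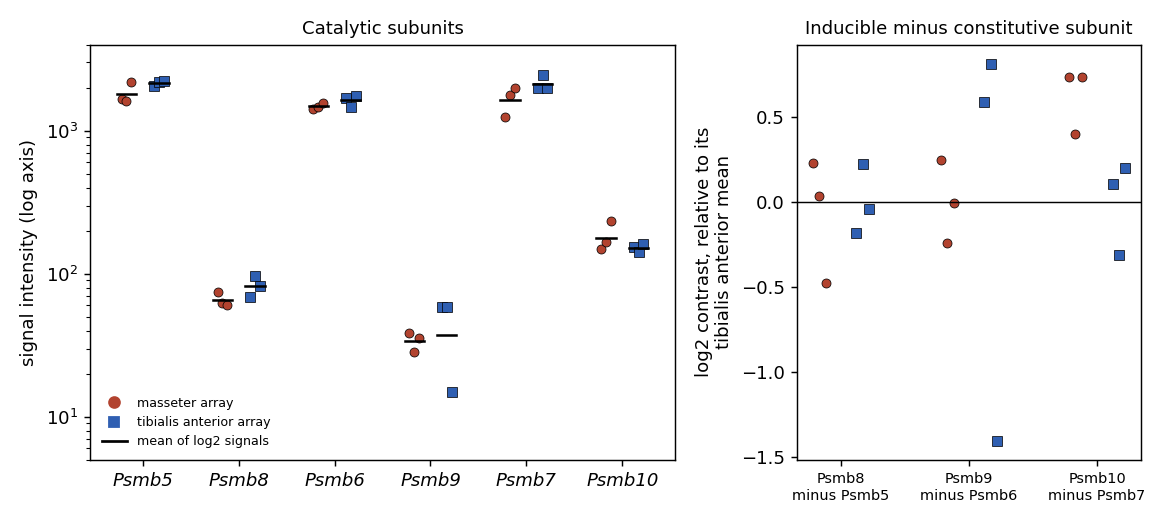
Left, signal intensity on a log axis for the constitutive catalytic subunits and the inducible subunits that replace them, with a point for each array and a bar at the mean of log2 signals. Right, the log2 contrast of each pair on each array relative to its tibialis anterior mean, where the masseter arrays lie apart from the tibialis anterior arrays in Psmb10 minus Psmb7 and overlap with them in the others.

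The greatest difference among the 42 genes was in the regulatory particle. Among the 11 non-ATPase subunits, all differences were below 0, with a median of -0.24, and Psmd11 passed the threshold. Their mean log2 signal was 9.71, 9.70 and 9.69 on the masseter arrays, a range of hundredths, and 10.10, 9.94 and 10.07 on the tibialis anterior arrays. For Psmd11, masseter 1, 2 and 3 read 1138, 1256 and 975, while tibialis anterior 1, 2 and 3 read 2289, 1934 and 2466. The highest masseter array lay well below the lowest tibialis anterior array. The difference was -0.99 ± 0.16 (adjusted p = 0.0297), which is 1.99-fold more signal in the tibialis anterior. The pairs gave -1.01, -0.62 and -1.34.

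The Psmd11 call depended on the data used. It held when the replicate block was dropped (adjusted p = 0.0187). It was lost when eBayes used no intensity trend (adjusted p = 0.27) and without replicate 3 (-0.82, adjusted p = 0.0776). Unblocked fits lost it without masseter 3 (adjusted p = 0.0606), tibialis anterior 1 (adjusted p = 0.0704) or tibialis anterior 3 (adjusted p = 0.0738), with differences from -0.97 to -0.89. Paired SAM, the test the study names, called 0 of the 66 member probe sets.

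Psmd11 had 6 probe sets, 5 of them kept. Beside the one that passed, 3 gave -0.80 (adjusted p = 0.0839), -0.56 (adjusted p = 0.185) and -0.54 (adjusted p = 0.239). In the first of these the masseter signals were 283, 259 and 286 and the tibialis anterior signals 475, 375 and 626, without overlap. In the second, signals from 274 to 333 stood against 339 to 524, and in the third, signals from 630 to 900 stood against 996 to 1224, each without overlap. A kept probe set with signals from 24.5 to 51.4, close to the filter level, gave 0.31 (adjusted p = 0.833), and the last was not kept. The mean over all 6 probe sets, the dim ones included, gave -0.31 (adjusted p = 0.575). In the array maker's naming the ending of the brightest one marks probes that can match more than 1 transcript, so part of its signal may come from elsewhere.

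**Figure D4:**
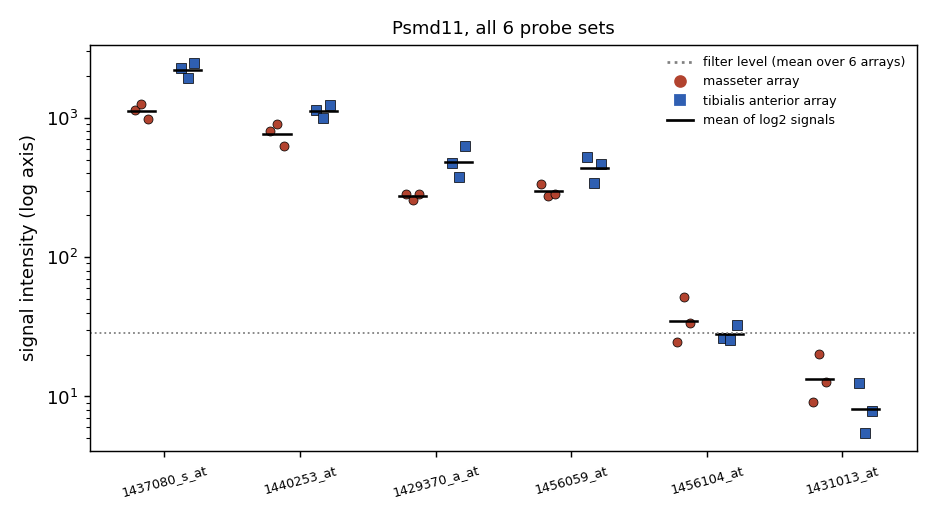
Signal intensity on a log axis for the 6 probe sets of Psmd11, with a point for each array, a bar at the mean of log2 signals and a dotted line at the filter signal of 28.6. In the 4 brighter probe sets every masseter array lies below every tibialis anterior array, and the 2 dim ones overlap.

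Psmd14, the deubiquitinase that cuts ubiquitin chains off proteins entering the core, had the next greatest difference among the non-ATPase subunits. Its signals were 1316, 1209 and 1048 in the masseter against 1682, 2050 and 1708 in the tibialis anterior, without overlap. The difference was -0.61 ± 0.14, 1.52-fold more signal in the tibialis anterior, and its adjusted p of 0.1001 missed the threshold here and in all 16 alternatives that gave it a value, where it ran from 0.0588 to 0.484. Psmd8, a small lid subunit, had 446, 367 and 376 against 565, 493 and 762, also without overlap (-0.60 ± 0.18, adjusted p = 0.198).

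The other lid and base subunits had smaller differences. Psmd12, another lid subunit, gave -0.26 ± 0.13 (adjusted p = 0.466), with masseter signals from 1574 to 1777 and tibialis anterior signals from 1890 to 2115. Psmd2, a scaffold of the base that docks ubiquitin-carrying shuttle factors, had a narrow spread in both muscles. Its signals were 1363, 1287 and 1296 against 1472, 1454 and 1461, which did not overlap at a difference of -0.15 ± 0.13 (adjusted p = 0.684). Psmd4, a ubiquitin receptor, had 906, 1143 and 1110 against 1374, 1185 and 1167, just without overlap (-0.24 ± 0.16, adjusted p = 0.585), and its dimmest probe set gave 0.19. The signals of Psmd1, Psmd3, Psmd6, Psmd7 and Psmd13 overlapped between the muscles, with differences from -0.25 to 0.00. Psmd3 varied most, from 271 to 610 in the masseter and from 266 to 634 in the tibialis anterior, and masseter 2 and tibialis anterior 2 were its low arrays.

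**Figure D5:**
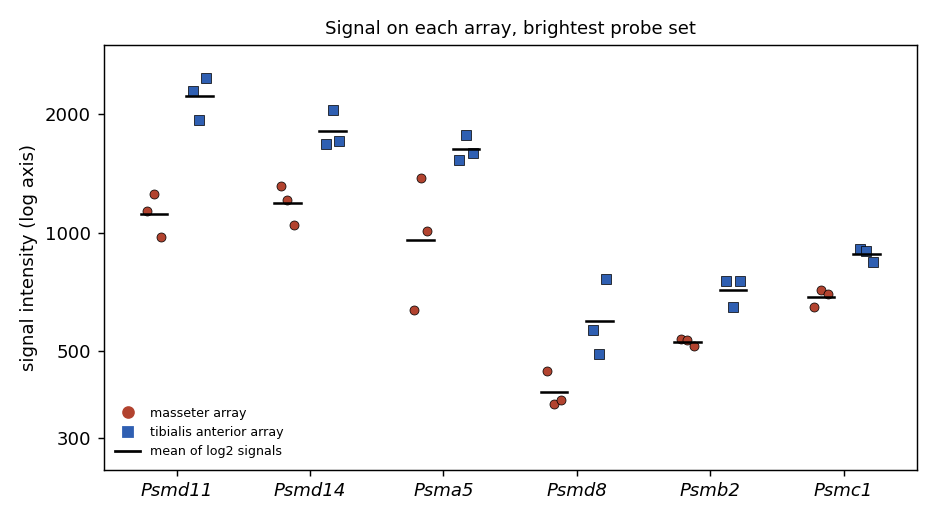
Signal intensity on a log axis for Psmd11, Psmd14, Psma5, Psmd8, Psmb2 and Psmc1, brightest probe set, with a point for each array and a bar at the mean of log2 signals. In each of these 6 genes all masseter points lie below all tibialis anterior points, and Psma5 has the widest spread among masseter arrays.

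The ATPases form the ring of motor subunits that unfolds proteins. Of 6 genes 5 were below 0, the median was -0.12 and 0 passed the threshold by limma (1 with an unadjusted p under 0.05). Their mean log2 signal overlapped between the muscles, at 10.14, 10.20 and 10.02 against 10.17, 10.40 and 10.26. Psmc1 had signals of 647, 715 and 699 in the masseter against 908, 898 and 840 in the tibialis anterior. These did not overlap, and the difference was -0.36 ± 0.14 (adjusted p = 0.316). Psmc2 had 3048, 3234 and 2920 against 3502, 2893 and 2817, which overlapped at a difference of 0.00 ± 0.13 (adjusted p = 0.992). Psmc6 gave -0.07 ± 0.13 with signals from 1087 to 1181 and from 1104 to 1244, while its second brightest probe set gave 0.38 ± 0.18 (adjusted p = 0.428). The latter was the member probe set above 0 with the smallest unadjusted p.

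The assembly chaperones of the base, Psmd5, Psmd9 and Psmd10, had differences of -0.10, -0.23 and -0.01, and 0 of 3 passed. Psmd9 had signals of 108, 129 and 128 against 150, 135 and 141, which did not overlap (-0.23 ± 0.19, adjusted p = 0.687). Its other probe set gave -0.46 ± 0.28 (limma adjusted p = 0.559), and there the muscles overlapped.

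The activators, which open the core without ubiquitin, had 3 genes kept, with 3 below 0 and 0 past the threshold or at an unadjusted p under 0.05 by limma. Psme1, the alpha subunit of the interferon-induced activator PA28, had 163, 236 and 180 in the masseter against 257, 301 and 193 in the tibialis anterior. Masseter 2 lay above tibialis anterior 3, and the difference was -0.37 ± 0.18 (adjusted p = 0.447). Psme4, which encodes the nuclear activator PA200, had 1466, 974 and 856 against 1252, 1415 and 1168, with masseter 1 the highest of all arrays (-0.25 ± 0.18, adjusted p = 0.612). Psme3, the nuclear PA28 subunit, had 313, 246 and 244 against 251, 307 and 297 (-0.10 ± 0.19, adjusted p = 0.884), and its sign changed without replicate 2 (0.02). The symbol rule also took 2 genes that encode no subunit. Psmc3ip, a factor of meiotic recombination, gave 0.09 ± 0.36 (adjusted p = 0.949), and Psme3ip1, a partner of the nuclear PA28, gave -0.24 ± 0.16 (adjusted p = 0.612).

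Probe sets of 1 gene did not always agree. Of 15 genes with at least 2 kept probe sets, 9 had every kept probe set below 0, 6 had both signs and 0 had every one above 0. The median range of the differences within a gene was 0.28, which is larger than the median shift of the family. The widest ranges were in Psmd11 (1.30), Psma6 (1.27) and Psmb1 (1.19). A dim probe set stood at 1 end in Psmd11 and Psma6, and dim probe sets stood at both ends in Psmb1.

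Genes around the proteasome were summarised by lists. Beside the counts in these lists, 13.1% of all 13576 probe sets had an unadjusted limma p under 0.05, and 1.18% passed the threshold. No list was tested against these shares. Of 13 measured genes of assembly and associated proteins 0 passed the threshold by limma, 8 were below 0, the median was -0.07 and 1 had an unadjusted p under 0.05. This was the proteasome-associated thioredoxin Txnl1, with mean signals of 1253 and 1604 (-0.36 ± 0.15, adjusted p = 0.359). Pomp, the maturation factor of the core, had 492 and 630 (-0.36 ± 0.19, adjusted p = 0.4903), and Uchl5, a deubiquitinase of the base, had 234 and 296 (-0.34 ± 0.23, adjusted p = 0.596).

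Of 10 measured genes of transcriptional control 0 passed, with 5 below 0, a median of -0.01 and 3 at an unadjusted p under 0.05. Nfe2l2, the stress-responsive relative of Nfe2l1, had 530 in masseter against 364 in tibialis anterior (0.54 ± 0.20, adjusted p = 0.293). Ngly1, the glycanase that activates Nfe2l1, had 574 and 732 (-0.35 ± 0.15, adjusted p = 0.359), and Mafk, a small Maf partner, had 191 and 254 (-0.41 ± 0.17, adjusted p = 0.361).

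Of 11 measured genes of ubiquitin and delivery 0 passed by limma, with 9 below 0, a median of -0.16 and 1 at an unadjusted p under 0.05. This was Sqstm1, the p62 receptor that carries ubiquitinated cargo to autophagy, with 1826 and 2575 (-0.50 ± 0.13, adjusted p = 0.133). The shuttle factors Ubqln1 and Rad23b gave 0.32 ± 0.14 (adjusted p = 0.391) and -0.48 ± 0.23 (adjusted p = 0.432), in opposite directions.

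Of 10 measured muscle ubiquitin ligases and partners 0 passed by limma, with 8 below 0, a median of -0.12 and 1 at an unadjusted p under 0.05. This was the deubiquitinase Usp19 (238 and 336, -0.50 ± 0.18, adjusted p = 0.268). Trim32, a ligase of thin-filament proteins, gave 0.39 ± 0.24 (adjusted p = 0.5602), and the chaperone-linked ligase Stub1 gave -0.21 ± 0.14 (adjusted p = 0.614). The atrophy ligase Fbxo32, named here after its values were seen, had signals of 1243, 952 and 1046 in the masseter against 2523, 1062 and 816 in the tibialis anterior (-0.27 ± 0.24, adjusted p = 0.695). The groups overlapped, and the sign rested on tibialis anterior 1, without which the difference was 0.21 ± 0.18 in an unblocked fit (limma adjusted p = 0.755).

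Genes of class I antigen processing and the interferon response had 13 of 20 measured members above 0, a median of 0.08, 0 past the threshold by limma and 2 at an unadjusted p under 0.05. B2m, the light chain of class I molecules, had 1253 in masseter against 894 in tibialis anterior (0.49 ± 0.15, adjusted p = 0.219), and Irf7, an interferon regulatory factor, had 60.4 and 97.0 (-0.68 ± 0.27, adjusted p = 0.341). The receptor chain Ifngr1 gave 0.38 ± 0.19 (adjusted p = 0.442). Of 12 macrophage markers on the array 8 were kept, with mean log2 signals from 6.26 to 6.75 in the masseter and from 6.23 to 6.56 in the tibialis anterior, and of 14 lymphocyte and antigen-presenting markers 6 were kept, from 6.29 to 7.08 and from 6.53 to 7.29. The T-cell genes Cd3e and Cd3g and the B-cell genes Cd79a and Cd79b lay under the filter level. The T-cell gene Cd8a, named after its values were seen, was kept, with 36.2, 35.8 and 13.9 in the masseter against 59.9, 48.6 and 48.3 in the tibialis anterior. These did not overlap, and the difference of -0.99 ± 0.41 did not pass (adjusted p = 0.361). The mean signal of Cd8a was 26.2 in the masseter, under the filter level, and 52.0 in the tibialis anterior. It was thus kept through its tibialis anterior signals, and the lack of overlap rests on a gene near the filter level. Of the 6 lymphocyte and antigen-presenting markers kept, 3 were below 0 and 3 above, with a median of -0.02.

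Of 19 measured genes of other protein-quality control 0 passed by limma, with 9 below 0, a median of 0.00 and 3 at an unadjusted p under 0.05. The chaperonin subunit Cct3 gave -0.63 ± 0.20 (adjusted p = 0.233), the constitutive chaperone Hspa8 gave -0.35 ± 0.12 (adjusted p = 0.245) and the protease Capn2 gave 0.35 ± 0.15 (adjusted p = 0.367). Beside these lists, the share of genes below 0 was 90.5% among the 42 genes of the symbol rule and 47.7% over all 8316 genes named by a brightest probe set. Whether the proteasome genes differ from the genes of these lists was not tested.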

How the data were processed

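Frozen muscle gave total RNA, which was turned into biotin-labelled cRNA for 1 array per sample, per the labels' protocols. Intensity values deposited by the authors are linear, 1 for each probe set on each array. MAS5 and GCOS appear in the submitters' processing notes, without versions or settings. The number of arrays limits the precision.

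The platform annotation gave gene names (20380 of 22626 with 1 symbol, 691 with several, 1555 with none), checked by gene identifier against RefSeq. Signals were raised to at least 1 before log2. Without the controls, probe sets at or above the 40th percentile of mean log2 signal were kept. Muscles were tested two-sided by limma 3.58.1 under R 4.3.3, with lmFit and a trended eBayes. The titles' replicate number was a block, since the series' design text describes paired comparisons. The catalytic pairs were compared by exact permutation over arrays. Group means are means of log2 signals, given as signals. The procedure was tested on simulated data. The smallest change set there was about the size of the Psmd11 difference and larger than the differences of the other member genes. Changes of the size of those smaller differences were not simulated.

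Members, lists, filter and alternatives were chosen with earlier results of these data known. Members were named when catalytic, an activator, past the threshold, among the 5 smallest unadjusted p in a direction or greatest in their class, with up to 3 genes of each related list by smallest p. Others served to describe their class. Alternatives were no block, other filters, no trend, quantile normalization, an offset of 16, paired SAM, the mean over probe sets and leaving out replicates or arrays.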

Additional observations from a re-analysis of the deposited data

How the results depend on the processing

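The median over member probe sets kept its sign and stayed within the spread of the pairs in all 15 alternatives, from -0.23 to -0.15, and the count of genes below 0 ran from 35 to 39 in 16 alternatives added after seeing the data. Titles give both muscles replicate numbers 1 to 3. Deviations from the muscle's mean correlated by 0.04, 0.15 and 0.10 for the same number and from -0.16 to 0.05 for different ones, so the data do not settle that the numbers pair. Without the replicate block 138 probe sets passed, against 160, with 1 member in both, and no call of a member changed. With eBayes without trend 13 passed and with paired SAM 68, with 0 members in each. Leaving out a replicate or an array gave 45 to 173 probe sets and 0 to 1 members. The contrast of Psmb10 and Psmb7 ran from 0.47 to 0.74 with replicates or arrays left out. With a replicate left out its exact permutation p was 0.3333, the smallest that 2 against 2 arrays allow. With an array left out the exact permutation p was 0.1, or 0.2 without tibialis anterior 2. Among the members named by the rule above, signs changed with replicates or arrays left out for Psmb9 (-0.83 to 0.32), Psme3 (-0.30 to 0.015) and Psmb1 (-0.063 to 0.13). With the mean over probe sets they changed for Psmc6 (0.040) and Psmc1 (0.11). None of these genes passed, and the cause was not tested. Other members were not followed gene by gene in these refits, and their signs may also rest on 1 replicate. For Psmd3 the numbered pairs gave -0.67, 0.03 and 0.20. Low signal limits Psmb9, which lay under the filter level on 2 arrays.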
